A study of Homo sapiens with 6 samples.

Results

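The genes described here are the 10 that encode the core of the small RNA machinery: the microRNA-processing genes DROSHA, DGCR8 and DICER1, the Argonaute genes AGO1, AGO2, AGO3 and AGO4, and the silencing-effector genes TNRC6A, TNRC6B and TNRC6C. They were taken by gene symbol from a deposited table of 58735 genes, and all 10 were found there and passed the filter on low counts. RNA-seq was done on Ishikawa cells, an established human endometrial cancer cell line, 48 hours after lipofection. The control group (siNC) received a negative control siRNA and the knockdown group (siTCF19) an siRNA against the transcription regulator gene TCF19, with 3 libraries in each group. Both groups were therefore transfected with a small RNA, and no untransfected group was analysed here. Whether the 3 libraries of each group are separate cultures is not stated in the labels, so the p-values rest on library-to-library spread that may be technical.

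MicroRNAs are cut from longer transcripts in 2 steps. In the nucleus DROSHA, a ribonuclease III, and its RNA-binding partner DGCR8 release a hairpin from the primary transcript, and in the cytoplasm DICER1 cuts off the loop. An Argonaute protein then keeps 1 strand of the duplex as a guide, and TNRC6 proteins (also known as GW182 proteins) connect Argonaute to the enzymes that shorten poly(A) tails and remove caps. Synthetic siRNAs enter the same pathway at the Argonaute step, and AGO2 is the family member known for cutting fully paired targets. RNA-seq of this kind reads the messenger RNAs of these proteins. It does not measure the mature small RNAs or the proteins.

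Each library held between 14680022 and 16244705 counts. The targeted gene, TCF19, was 4.59-fold lower in siTCF19, with 2572, 2905 and 2756 counts in the siNC libraries against 675, 529 and 606 (edgeR adjusted p = 6.15e-29). Of the 17299 genes tested, 41.5% passed an adjusted p under 0.05 in either direction (called, below), 20.7% higher and 20.8% lower in siTCF19. The groups did not overlap in 49.2% of genes. The 8 epithelial markers examined summed to 3025 to 3172 CPM (counts scaled to library size with TMM factors) in siNC and 2867 to 2994 in siTCF19, with 3 called higher, 2 lower and 3, EPCAM and PAX8 among them, not called. The 4 leukocyte markers summed to at most 2.12 CPM in any library. In the fibroblast list only COL1A1 and COL1A2 passed the filter on low counts, DCN was at 0 in every library, and the 6 genes summed to 178 to 180 CPM in siNC and 125 to 135 in siTCF19. COL1A1 was called higher and COL1A2 lower (log2 fold changes 0.58 and -0.66). The 3 endothelial markers summed to 6.56 to 6.99 CPM in siNC and 13.8 to 17.2 in siTCF19, mostly VWF (means of 5.13 and 15.5 CPM). VWF was called higher, but CDH5 was called lower (means of 0.978 and 0.259 CPM). PECAM1 did not pass the filter, with 6, 15 and 8 counts in siNC and 3, 2 and 0 in siTCF19. The part of these markers in the results below was not tested.

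AGO1 fell by 36.6% after TCF19 knockdown, and AGO2 by 11.5%. TNRC6B rose by 24.3%. TNRC6C, the member with the lowest level, fell by 17.8%, a call that many of the alternative settings did not keep. DROSHA, DGCR8, DICER1, AGO3, AGO4 and TNRC6A were not called. In all, 1 of the 10 genes was higher, 3 were lower and 6 were not called, against 41.5% of all tested genes called, so the share of called genes (40.0%) was near that of all tested genes. The median log2 fold change of the 10 was -0.10, beside 0.0009 over all tested genes. In 7 of the 10 the groups did not overlap, beside 49.2% of all tested genes.

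**Figure D1:**
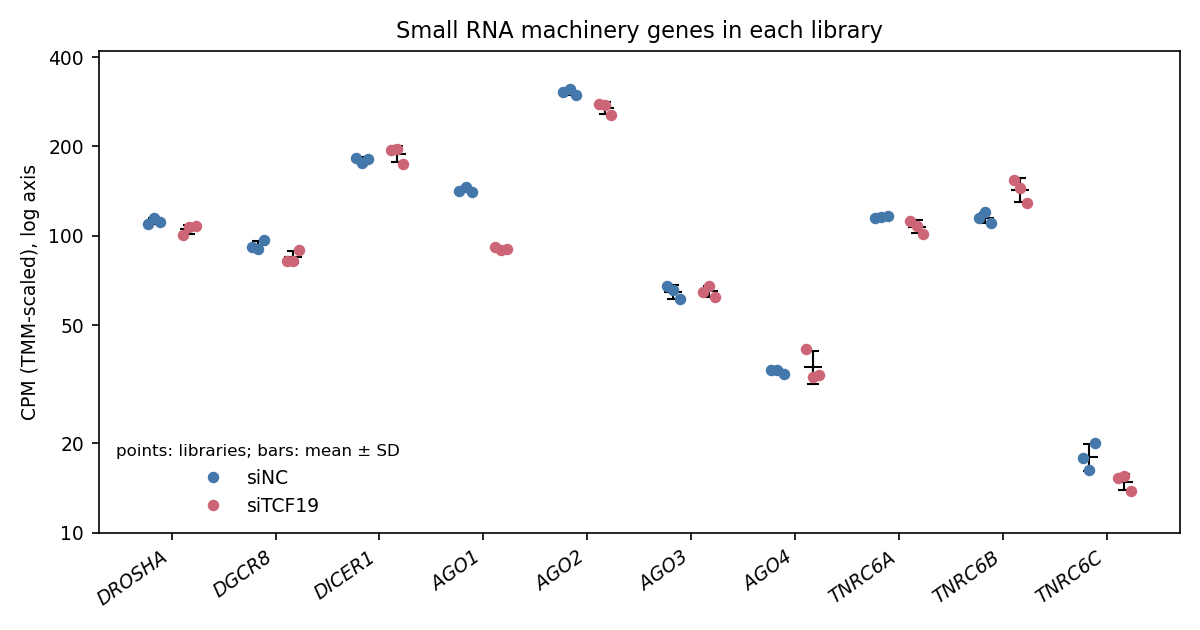
TMM-scaled CPM (log axis) of the 10 small RNA machinery genes in each library. Points are libraries (blue siNC, red siTCF19) and bars the mean ± SD of 3. The AGO1 libraries lie at 141 to 147 CPM in siNC and at 89.8 to 91.7 in siTCF19, and the TNRC6B libraries at 110 to 120 and at 129 to 155.

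Levels of different genes were compared per length, as deposited FPKM (fragments scaled by gene length and a size for each library). The length was that of all annotated exons merged. In siNC the order was AGO2 (19.1 ± 0.499 FPKM, SD, n = 3), DICER1 (14.5 ± 0.296), DROSHA (14.3 ± 0.337), DGCR8 (12.6 ± 0.422), AGO1 (10.2 ± 0.244), TNRC6A (8.89 ± 0.0546), TNRC6B (5.70 ± 0.250), AGO4 (4.77 ± 0.112), AGO3 (3.04 ± 0.174) and TNRC6C (1.61 ± 0.162). The siNC libraries of DICER1 and DROSHA overlapped, and no other neighbours in that order did. By mean FPKM over all 6 libraries of both groups, AGO2 lay above 83.0% of the tested genes and TNRC6C above 28.1%. In siTCF19 AGO1 stood at 6.47 ± 0.0945 FPKM, below TNRC6A (8.24 ± 0.419), and its libraries overlapped those of TNRC6B (7.09 ± 0.656). Merged exon lengths include long alternative ends, such as those of AGO3 (21157 bases) and TNRC6B (19998 bases), and lower the FPKM of genes that use only part of them.

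DROSHA and DGCR8, which together form the Microprocessor, lay slightly lower in siTCF19 and were not called. DROSHA (ENSG00000113360, hg38 chromosome 5, 31400497 to 31532196, minus strand) had 110, 115 and 112 CPM in siNC and 100.7, 107 and 108 in siTCF19. Its siTCF19 libraries all lay below its siNC libraries, and the log2 fold change was -0.10 ± 0.05 (SE; edgeR adjusted p = 0.150). DGCR8 (ENSG00000128191, chromosome 22, 20080232 to 20111877, plus strand) had 91.5, 90.5 and 96.8 CPM in siNC and 82.6, 82.6 and 89.8 in siTCF19. Again the groups did not overlap, and the log2 fold change was -0.13 ± 0.06 (SE; edgeR adjusted p = 0.0632). The 95% interval of DGCR8, which is not adjusted over genes, was -0.2431 to -0.015. DGCR8 was called lower in 1 of 16 alternative settings, without siTCF19 replicate 3, and its adjusted p over the 16 ran from 0.0241 to 0.346.

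The DGCR8 transcript is itself known as a substrate of the Microprocessor, because hairpins lie within its exons. The 3 mature microRNAs that RefSeq (GRCh38.p14) places there are shown for that reason, with the seed (bases 2 to 8) in capitals:
hsa-miR-3618 (chr22:20085797-20085818, plus strand): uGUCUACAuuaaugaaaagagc
hsa-miR-1306-5p (chr22:20086072-20086093, plus strand): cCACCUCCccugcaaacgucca
hsa-miR-1306-3p (chr22:20086112-20086129, plus strand): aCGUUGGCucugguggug
The 3 seeds differ from each other. The table has rows for the hairpins MIR3618 and MIR1306, and both hold 0 counts in every library. They share 88 and 85 bases with DGCR8 exons on the same strand. How reads shared between genes were counted is not known here, so these zeros do not show that no reads fell there. Over all 1879 microRNA rows of the table, 1324 hold no count in any library and 24 passed the filter on low counts.

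DICER1 (ENSG00000100697, chromosome 14, 95086228 to 95158010, minus strand), which makes the second cut, was not called. Its libraries held 184, 176 and 181 CPM in siNC and 195, 195 and 175 in siTCF19. Replicates 1 and 2 of siTCF19 lay above all siNC libraries and replicate 3 below them. The log2 fold change was 0.06 ± 0.05 (SE), with a 95% interval of -0.04 to 0.16 and an edgeR adjusted p of 0.335. Scaled by library size alone, the only 1 of 16 alternatives to call it, DICER1 was higher (log2 fold change 0.12, adjusted p = 0.0418, the others up to 0.613). An antisense gene, DICER1-AS1, shares 80 exon bases with it and had 71 to 102 counts in siNC and 68 to 74 in siTCF19.

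AGO1 (ENSG00000092847, chromosome 1, 35869808 to 35930528, plus strand) had the largest change of the 10 genes. The siNC libraries held 2067, 2302 and 2191 AGO1 counts (142, 147 and 141 CPM), and the siTCF19 libraries 1449, 1345 and 1404 (91.7, 89.8 and 90.5 CPM). The groups were far apart and the siTCF19 libraries close together (143 ± 3.10 against 90.7 ± 0.931 CPM, SD, n = 3 per group). AGO1 fell by 0.66 on the log2 scale (SE 0.05), a change of -36.6% with a 95% interval of -41.0% to -31.9%, and its edgeR adjusted p was 4.90e-14. The call was made under all 16 alternative settings, with log2 fold changes of -0.67 to -0.59.

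AGO2 (ENSG00000123908, chromosome 8, 140520156 to 140635619, minus strand), the most abundant Argonaute gene here, fell by less. It had 305, 312 and 298 CPM in siNC and 279, 276 and 256 in siTCF19. The lowest siNC library lay above the highest siTCF19 library. The change was -11.5% (95% interval -17.0% to -5.56%), or -0.18 ± 0.05 on the log2 scale (SE; edgeR adjusted p = 0.00189). All 16 alternatives called it, with adjusted p from 0.000569 to 0.0348.

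AGO3 and AGO4 were not called. AGO3 (ENSG00000126070, chromosome 1, 35930718 to 36072500, plus strand) had 68.0, 65.6 and 61.1 CPM in siNC and 64.6, 67.9 and 62.4 in siTCF19, and the groups overlapped throughout. Its log2 fold change was 0.0018 with a 95% interval of -0.12 to 0.13. AGO4 (ENSG00000134698, chromosome 1, 35808172 to 35857890, plus strand) had 35.5, 35.3 and 34.1 CPM in siNC. In siTCF19 it had 41.6 CPM in replicate 1 and 33.4 and 33.9 in the others, and without replicate 1 its log2 fold change went from 0.06 to -0.05. The 95% interval of AGO4 was -0.11 to 0.22 (edgeR adjusted p = 0.618). Both intervals end well short of the change of AGO1.

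**Figure D2:**
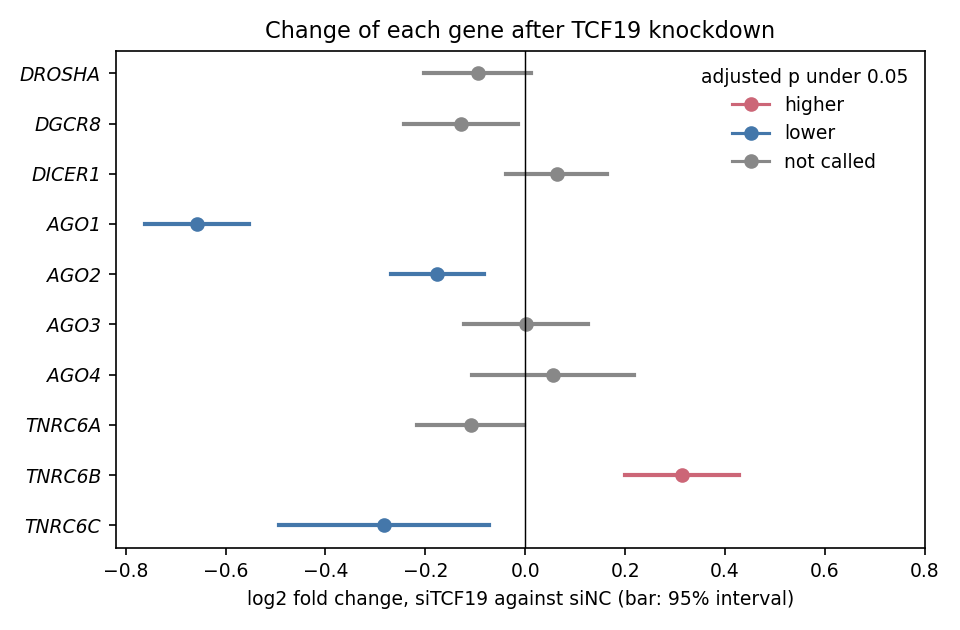
Log2 fold change (siTCF19 against siNC) of each small RNA machinery gene with its 95% interval, ordered from microRNA processing (top) to silencing effectors (bottom). Colours mark the call at an adjusted p under 0.05. The intervals are not adjusted over genes, and those of DGCR8 and TNRC6A lie wholly below no change without a call. AGO1 lies at -0.66, AGO2 at -0.18, TNRC6C at -0.28 and TNRC6B at 0.31, and the other 6 genes were not called.

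AGO4, AGO1 and AGO3 lie in a row on the plus strand of chromosome 1 and together span 264329 bases. The annotation leaves 11917 bases between AGO4 and AGO1 and 189 bases between AGO1 and AGO3. The middle gene, AGO1, fell, while the genes on either side of it were not called. The map of the cluster shows these changes by position.

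**Figure D3:**
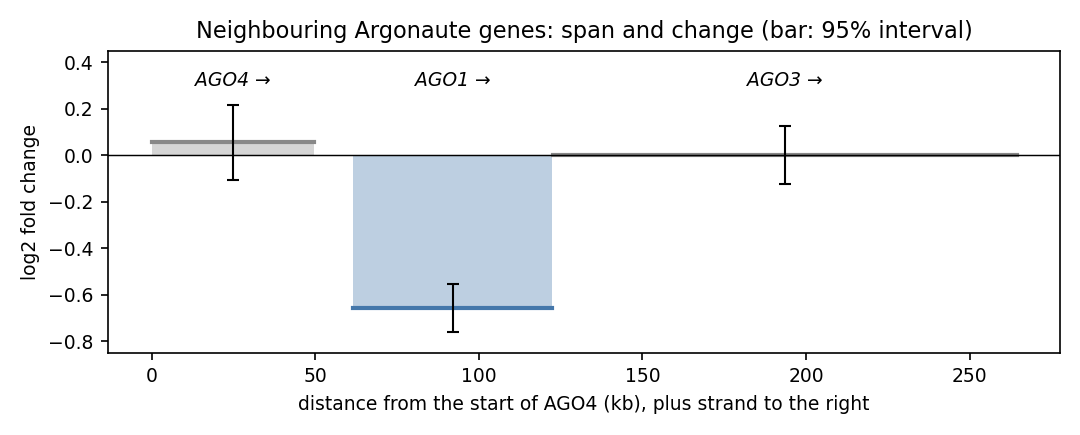
The AGO4, AGO1 and AGO3 genes drawn by distance from the start of AGO4 (kb), with the height of each block giving its log2 fold change (siTCF19 against siNC) and the bar its 95% interval. The AGO1 block stands at -0.66 and its neighbours at 0.06 (AGO4) and 0.0018 (AGO3).

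The windows before the annotated starts of AGO1 and AGO4, neighbours on the same strand that differed in response, and of TNRC6B, the gene that rose, are printed for comparison. They come from the 250 bases before the start in RefSeq (GRCh38.p14), cut where a GENCODE exon begins, and capitals mark the CCAAT box (CCAAT) and the GC box (GGGCGG) on either strand:
AGO1 (chr1:35882959-35883208, plus strand): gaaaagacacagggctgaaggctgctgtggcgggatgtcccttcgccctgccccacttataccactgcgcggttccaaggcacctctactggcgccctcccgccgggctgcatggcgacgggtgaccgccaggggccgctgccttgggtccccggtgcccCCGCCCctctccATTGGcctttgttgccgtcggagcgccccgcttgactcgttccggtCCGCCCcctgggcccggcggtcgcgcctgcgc
AGO4 (chr1:35807766-35808015, plus strand): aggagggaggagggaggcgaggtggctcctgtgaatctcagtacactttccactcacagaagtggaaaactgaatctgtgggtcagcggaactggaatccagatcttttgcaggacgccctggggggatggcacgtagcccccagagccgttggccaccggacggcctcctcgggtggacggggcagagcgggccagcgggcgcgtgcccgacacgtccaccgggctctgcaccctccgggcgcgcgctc
TNRC6B (chr22:40044584-40044816, plus strand): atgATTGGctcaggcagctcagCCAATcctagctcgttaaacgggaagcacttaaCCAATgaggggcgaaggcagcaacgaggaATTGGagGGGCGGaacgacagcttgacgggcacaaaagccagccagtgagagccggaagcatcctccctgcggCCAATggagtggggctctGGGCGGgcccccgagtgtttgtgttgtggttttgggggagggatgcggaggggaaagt
The AGO1 window held 1 CCAAT box and 2 GC boxes, the AGO4 window held 0 of each, and the TNRC6B window held 5 CCAAT boxes and 2 GC boxes. Counted over the full 250 bases, before the cut, the AGO3 window held 0 CCAAT boxes and 2 GC boxes. None of these 4 windows held the E-box CACGTG. Of the genes not called, the full DGCR8 window held 4 CCAAT boxes and 2 GC boxes, the DROSHA window 3 and 1, and the TNRC6A window 1 of each. The DICER1 windows held 0 or 1 of each. For TNRC6C, which was called, 1 window held an E-box, 2 CCAAT boxes and 2 GC boxes, and its other windows no E-box. AGO2 was left out of this search. Over 35116 windows of 250 bases, 32.0% held a CCAAT box, 42.6% a GC box and 6.34% the E-box, and no motif overlapped another in the printed windows. The AGO1 start used by RefSeq lies inside the longer AGO1 gene of GENCODE. These matches describe the letters and do not show binding.

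The make-up of the Argonaute family moved with the fall of AGO1. The summed FPKM of AGO1 to AGO4 was 37.3, 37.9 and 36.1 in siNC and 32.8, 31.3 and 30.0 in siTCF19. AGO1 made up 27.2%, 27.6% and 27.7% of that sum in siNC and 20.03%, 20.4% and 21.5% in siTCF19. The difference of -6.86 percentage points was larger than the spread within either group. AGO2 made up 51.5% ± 0.160 in siNC and 53.9% ± 0.943 in siTCF19, AGO3 8.19% ± 0.329 and 9.71% ± 0.434, and AGO4 12.8% ± 0.140 and 15.8% ± 1.46 (SD, n = 3 per group). The share of AGO2 was thus higher in siTCF19 although its own level was lower. For each of the 4 shares the groups did not overlap, and the two-sided exact permutation p was 0.10, the smallest that 3 against 3 libraries allow. Shares of 1 sum are tied to each other and are not separate results.

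**Figure D4:**
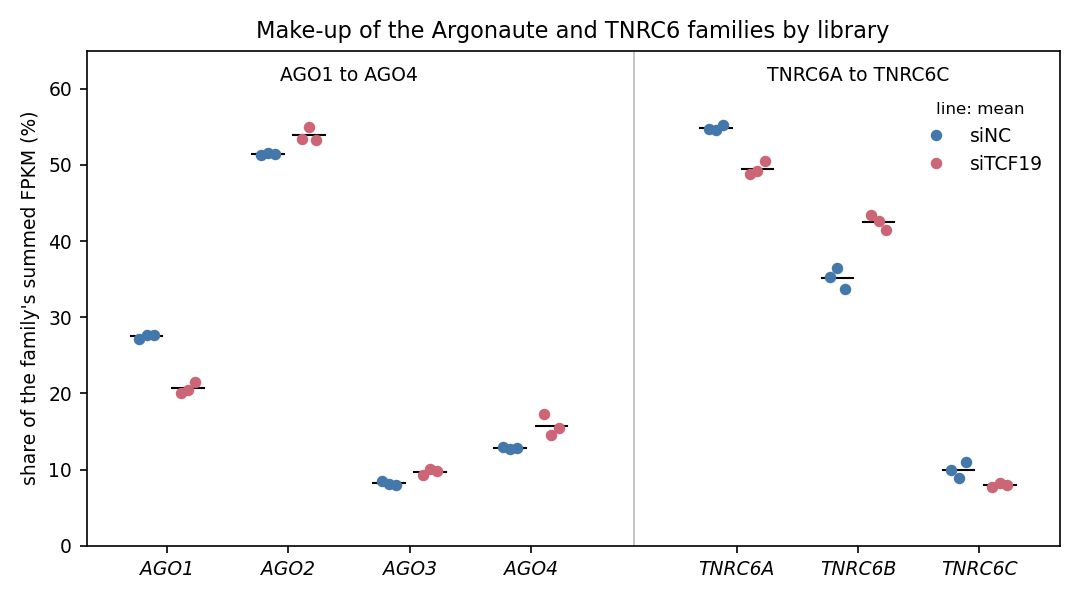
Share of each gene (percent) in the summed FPKM of its family in each library, for AGO1 to AGO4 (left) and TNRC6A to TNRC6C (right). Points are libraries (blue siNC, red siTCF19) and lines are means. AGO1 stands at 27.2% to 27.7% in siNC and 20.03% to 21.5% in siTCF19, and TNRC6B at 33.7% to 36.5% and 41.4% to 43.5%.

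The TNRC6 genes encode scaffolds with many glycine-tryptophan repeats that bind Argonaute, and they did not move as a family. TNRC6B (ENSG00000100354, chromosome 22, 40044817 to 40335808, plus strand) was the only member to rise. The siNC libraries held 1669, 1885 and 1722 TNRC6B counts (115, 119.98 and 110 CPM), and the siTCF19 libraries 2445, 2176 and 2001 (155, 145 and 129 CPM). Every siTCF19 library lay above every siNC library, with a wider spread among the siTCF19 libraries. TNRC6B rose by 24.3% (95% interval 14.9% to 34.5%), or by 0.31 ± 0.06 on the log2 scale (SE; edgeR adjusted p = 1.33e-05). All 16 alternatives called it, with log2 fold changes of 0.26 to 0.39.

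TNRC6A (ENSG00000090905, chromosome 16, 24610209 to 24827632, plus strand) had 115, 116 and 117 CPM in siNC and 112, 108 and 102 in siTCF19. Its groups did not overlap, but at a log2 fold change of -0.11 ± 0.05 (SE) it was not called (edgeR adjusted p = 0.0959). Its 95% interval, which is not adjusted over genes, was -0.2162 to -0.0025. TNRC6C (ENSG00000078687, chromosome 17, 77959240 to 78108835, plus strand) was counted 260, 256 and 312 times in siNC (17.9, 16.3 and 20.02 CPM) and 241, 232 and 214 times in siTCF19 (15.2, 15.5 and 13.8 CPM). The groups did not overlap, and TNRC6C fell by 0.28 on the log2 scale (SE 0.10; edgeR adjusted p = 0.0269).

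The TNRC6C call rests on few counts. It was not made by DESeq2 (adjusted p = 0.103) or on the log2(FPKM + 1) scale (0.134), nor with library-size-only scaling (0.0871). It was also lost when replicate 1 (0.0528) or 3 (0.184) of siNC was left out, or 1 (0.0547) or 3 (0.131) of siTCF19. Over all 16 alternatives its adjusted p ran from 0.0137 to 0.184. The authors' deposited table lists an adjusted p of 0.102. That is not a separate check, since its log2 fold change (-0.2832) equals that of DESeq2 here. TNRC6C also shares 1438 exon bases, 12.9% of its own, with TNRC6C-AS1 on the opposite strand. TNRC6C-AS1 had 161, 163 and 153 counts in siNC and 85, 75 and 57 in siTCF19, a log2 fold change of -1.15 (edgeR adjusted p = 3.47e-08). Whether strand was used in the counting is not stated in the labels or notes, so reads of the shared stretch cannot be told apart. No other member shared more than 7.19% of its exon bases with another gene.

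The sum of the 3 TNRC6 genes was 16.1, 16.3 and 16.2 FPKM in siNC and 17.7, 16.8 and 15.4 in siTCF19, and these groups overlapped. Its make-up differed: TNRC6A took 54.9% ± 0.355 in siNC and 49.5% ± 0.936 in siTCF19, TNRC6B 35.2% ± 1.39 and 42.5% ± 1.03, and TNRC6C 9.95% ± 1.04 and 7.96% ± 0.234 (SD, n = 3 per group). The groups did not overlap for any of the 3 shares (two-sided exact permutation p = 0.10, the smallest possible). On raw counts, TNRC6B passed from 46.2% to 53.9% of the family's reads and TNRC6A from 46.5% to 40.5%.

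The 3' UTRs of the 10 genes were searched for the words TGGTCAA and GGTCAAA, which were picked with earlier results of these data known. Whether genes that carry them differ from genes that do not was not tested here. Of 13156 tested protein-coding genes with a 3' UTR of at least 50 bases in GENCODE 29, 9.80% carry TGGTCAA and 8.82% carry GGTCAAA. Among the 10, AGO1, AGO3 and TNRC6C carry TGGTCAA, and TNRC6C also carries GGTCAAA. The longest annotated 3' UTRs of these carriers are 10921 bases (AGO1), 16755 bases (AGO3) and 3990 bases (TNRC6C). A longer UTR holds any given word more often, so the members' count is not comparable with the share over all genes. Of the genes without either word, TNRC6B (12567 bases) and AGO2 (11888 bases) also have long 3' UTRs. The sites are shown with the word in capitals (hg38, plus strand):
AGO1 (chr1:35920754-35920782): ttctcccttgaTGGTCAAgtctcttatgt
AGO3 (chr1:36061331-36061359): ctaaggtataaTGGTCAAggcttgtgcta
TNRC6C (chr17:78105759-78105787): ttttggcgcatTGGTCAAacggttgttat
TNRC6C (chr17:78108167-78108195): ccctggggcaaGGTCAAAggtggacccgc
The AGO1 site lies in both of its 2 transcripts with such a UTR, the AGO3 site in 1 of 3, the first TNRC6C site in 5 of 5 and the second in 2 of 5. The first TNRC6C site holds both words, since the base after its TGGTCAA completes an overlapping GGTCAAA (chr17:78105760-78105788 with its flanks). AGO1 and TNRC6C fell, AGO3 had a log2 fold change of 0.0018, and AGO2, which also fell, carries neither word. The part of these words in the changes was not tested.

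By distance of log2 CPM over the 6 libraries, each gene centred on its own mean, the genes nearest to AGO1 among 10952 protein-coding genes of at least 5 CPM were PIP4K2B, RCC1 and KIAA1671. PIP4K2B, a phosphoinositide kinase gene, lay at 199 ± 2.61 and 127 ± 1.92 CPM (SD, n = 3 per group), at a distance of 0.0304 log2 units. RCC1, the nucleotide exchange factor of RAN, lay at a distance of 0.0514 and had a log2 fold change of -0.66. KIAA1671 lay at a distance of 0.0571 and had a log2 fold change of -0.66. Genes picked by this distance share the change of AGO1 through the choice itself, so their fold changes are not separate results.

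The other genes of the pathway were taken from 7 lists ordered by role, 126 genes of which 107 were tested. Of the 107, 14 were higher, 45 lower and 48 not called, and their median log2 fold change was -0.09. Their called share was 55.1%, beside 41.5% of all tested genes, and 23.7% of the calls were higher, beside 49.9% of all calls. These shares were not matched for expression level, and the lists were chosen with earlier results of these data known. With library-size-only scaling 23 were higher and 37 lower, so 38.3% of the calls were higher, beside 61.4% of all calls under that scaling.

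Genes that act on the primary transcript or carry the hairpin out of the nucleus lay lower: of 13 tested, 9 fell, 0 rose and 4 were not called (69.2% called, beside 41.5% of all tested genes), with a median log2 fold change of -0.21. RAN, the GTPase that powers nuclear export, fell from 559 ± 15.0 to 426 ± 18.3 CPM. The splicing factor gene SRSF3 fell from 400 ± 4.01 to 321 ± 5.20 CPM, SRRT, which links the cap-binding complex to microRNA processing, from 241 ± 6.82 to 192 ± 8.92 CPM, and the helicase gene DDX5 from 598 ± 1.69 to 513 ± 8.51 CPM (mean ± SD of 3 libraries each). SAFB and KHSRP fell by 0.23 and 0.20 on the log2 scale. LIN28A and LIN28B, which block let-7 maturation, did not pass the filter: LIN28A had 34 counts over all 6 libraries and LIN28B 0.

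The partners of DICER1 and the chaperones that load Argonaute formed the list with the lowest median (-0.33): of 12 tested, 9 fell, 0 rose and 3 were not called (75.0% called, beside 41.5% of all tested genes). HSP90AB1, a chaperone that opens Argonaute for loading, fell from 2124 ± 31.4 to 1508 ± 37.3 CPM and HSPA8 from 1654 ± 4.45 to 1237 ± 22.3 CPM. The HSP90 co-chaperone genes FKBP4 (-0.48) and AHSA1 (-0.39) fell on the log2 scale, as did IPO8 (-0.46), an import receptor that binds Argonaute. ADAR, the RNA-editing enzyme, fell by 0.36. The DICER1 partners TARBP2 (log2 fold change 0.10, edgeR adjusted p = 0.240) and PRKRA (0.15, adjusted p = 0.0574) were not called, and neither was PTGES3, although library-size-only scaling called 2 rises in the list. Upper-quartile scaling and the log2(FPKM + 1) scale each called 1 rise in it, and without siNC replicate 2 it had 10 falls.

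Of the 27 genes of deadenylation, decapping and translational repression, through which TNRC6 proteins act, 3 rose, 10 fell and 14 were not called (median log2 fold change -0.09). The called share, 48.1%, was close to the 41.5% of all tested genes. TOB1, an adaptor of the CCR4-NOT deadenylase, had the lowest value: 67.8, 67.2 and 63.4 CPM in siNC and 28.3, 34.5 and 32.1 in siTCF19, a log2 fold change of -1.06 ± 0.07 (SE; edgeR adjusted p = 3.70e-16). PABPC1, the poly(A)-binding protein gene that TNRC6 proteins contact, fell from 840 ± 5.63 to 537 ± 12.8 CPM (mean ± SD of 3 libraries each). The catalytic subunit gene CNOT6 fell from 119 ± 5.15 to 72.7 ± 3.33 CPM, and the decapping enzyme gene DCP2 from 162 ± 6.35 to 122 ± 6.27 CPM. EDC3, an enhancer of decapping, rose from 80.0 ± 5.08 to 110 ± 1.01 CPM and the exonuclease gene XRN1 from 36.2 ± 0.752 to 46.4 ± 3.79 CPM. With library-size-only scaling 6 genes of the list rose and 7 fell. CNOT1, the scaffold of CCR4-NOT, was not called (log2 fold change -0.03), nor were PAN2 and PAN3.

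Genes of small RNA turnover and Argonaute regulation were called about as often as all tested genes (45% beside 41.5%): of 20, 5 rose, 4 fell and 11 were not called (median log2 fold change 0.06). AJUBA and WTIP, LIM-domain proteins linked to Argonaute and TNRC6, rose from 42.5 ± 2.05 to 73.0 ± 2.98 CPM and from 27.5 ± 1.85 to 39.1 ± 0.818 CPM. ANKRD52, the regulatory partner of a phosphatase that dephosphorylates AGO2, rose by 0.34 on the log2 scale, and ZSWIM8, part of the ligase behind target-directed microRNA decay, by 0.27. EIF1AX (-0.29) and the exonuclease gene XRN2 (-0.20) fell. With library-size-only scaling the list had 9 rises and 2 falls. It also had 2 falls at an adjusted p under 0.01 and when replicate 1 or 3 of siNC or replicate 1 of siTCF19 was left out. The falls not called in each of these settings were those of PNPT1 and TSN, each called in 8 of 16 alternatives and named after their values were seen.

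Of 16 RNA-binding proteins found with Argonaute, 1 rose, 9 fell and 6 were not called (median log2 fold change -0.17; 62.5% called, beside 41.5% of all tested genes). IGF2BP1, an mRNA-stabilising protein, had 128, 122 and 126 CPM in siNC and 68.3, 67.0 and 64.7 in siTCF19, a log2 fold change of -0.91 ± 0.05 (SE; edgeR adjusted p = 1.33e-17). Its paralog IGF2BP3 rose from a mean of 23.3 to one of 30.6 CPM, and IGF2BP2 was not called. GEMIN4 (-0.46), the decay helicase gene UPF1 (-0.42), YBX1 (-0.34), the nuclease gene SND1 (-0.30) and the helicase gene DHX9 (-0.26) fell on the log2 scale. MOV10, an Argonaute-associated helicase, was not called (log2 fold change 0.05).

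The PIWI proteins are the germline branch of the Argonaute family. Of their 4 genes none passed the filter on low counts: PIWIL1 and PIWIL3 had 0 counts in every library, which allows up to 0.190 to 0.206 CPM by the 3-count limit, PIWIL2 had 9 counts over all libraries and PIWIL4 had 38. Of 5 tested genes of that pathway, 2 rose, 1 fell and 2 were not called (60.0% called, beside 41.5% of all tested genes). PLD6, a mitochondrial nuclease of piRNA formation, rose from 13.7 ± 1.59 to 22.8 ± 0.754 CPM and TDRD1 from 2.77 ± 0.0923 to 4.26 ± 0.425 CPM, while the small RNA methyltransferase gene HENMT1 fell from 25.0 ± 0.225 to 20.3 ± 1.36 CPM (mean ± SD of 3 libraries each). TDRD1 was not called by DESeq2, at an adjusted p under 0.01, or without siTCF19 replicate 2.

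**Figure D5:**
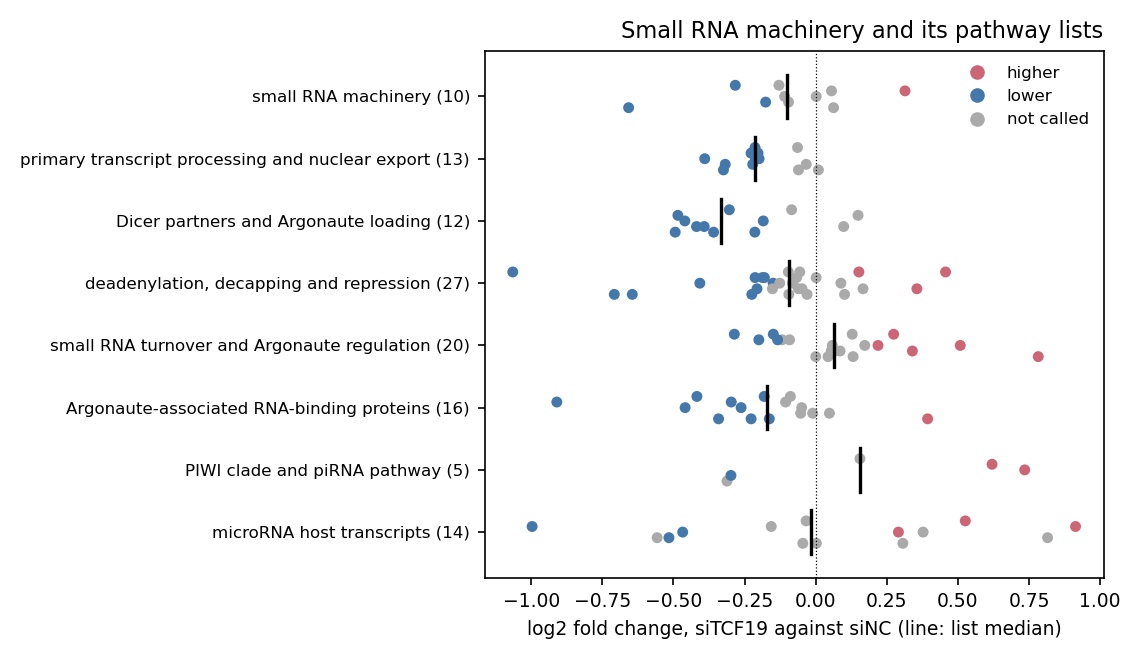
Log2 fold change (siTCF19 against siNC) of the 10 small RNA machinery genes and of the tested genes of the 7 pathway lists, with the number tested in parentheses. Points are genes coloured by their call and black lines are list medians. The medians are -0.10 for the 10 genes, -0.33 for Dicer partners and Argonaute loading, and 0.06 for small RNA turnover and Argonaute regulation.

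The substrates of the machinery include the host transcripts from which microRNAs are cut. Of 22 such genes 14 were tested, of which 3 rose, 3 fell and 8 were not called (median log2 fold change -0.02). The called share, 42.9%, was about that of all tested genes (41.5%). MIR17HG, the host of the miR-17 to miR-92a cluster, had 19.6, 17.2 and 23.7 CPM in siNC and 11.1, 9.55 and 9.61 in siTCF19, a log2 fold change of -0.997 ± 0.117 (SE; edgeR adjusted p = 2.59e-09). The replication helicase gene MCM7, whose intron holds the related miR-106b to miR-25 cluster, fell from 372 ± 16.5 to 260 ± 11.4 CPM, and MEST, the host of miR-335, from 146 ± 3.07 to 106 ± 2.03 CPM. MIR22HG rose from 9.73 ± 1.97 to 18.3 ± 1.79 CPM and MIR34AHG, the host of the p53-regulated miR-34a, from 3.54 ± 0.277 to 5.09 ± 0.573 CPM (mean ± SD of 3 libraries each). MIR99AHG rose by 0.29 on the log2 scale (edgeR adjusted p = 0.0427), and MIRLET7BHG was not called. Only 1 rise, that of MIR22HG, was called in this list by DESeq2, on the log2(FPKM + 1) scale, at an adjusted p under 0.01, and when replicate 2 or replicate 3 of siNC was left out. MIR22HG was called in 16 of 16 alternatives, MIR34AHG in 10 (adjusted p from 0.00920 to 0.105) and MIR99AHG in 6.

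Some mature microRNAs of the called hosts, none of them from MEST or MIR99AHG, are printed from RefSeq (GRCh38.p14). The seed is in capitals, to show which of the printed hosts carry the same seed:
hsa-miR-17-5p (chr13:91350618-91350640, plus strand): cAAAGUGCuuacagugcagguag
hsa-miR-20a-5p (chr13:91351072-91351094, plus strand): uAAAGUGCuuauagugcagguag
hsa-miR-93-5p (chr7:100093815-100093837, minus strand): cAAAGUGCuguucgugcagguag
hsa-miR-106b-5p (chr7:100094043-100094063, minus strand): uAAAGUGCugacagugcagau
hsa-miR-92a-3p (chr13:91351361-91351382, plus strand): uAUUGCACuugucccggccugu
hsa-miR-25-3p (chr7:100093571-100093592, minus strand): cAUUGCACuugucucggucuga
hsa-miR-34a-5p (chr1:9151735-9151756, minus strand): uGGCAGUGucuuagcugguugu
hsa-miR-22-3p (chr17:1713914-1713935, minus strand): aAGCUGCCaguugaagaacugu
The first 4 share the seed AAAGUGC, with miR-17-5p and miR-20a-5p from MIR17HG and miR-93-5p and miR-106b-5p from MCM7. The next pair, miR-92a-3p from MIR17HG and miR-25-3p from MCM7, shares AUUGCAC. MIR17HG and MCM7 both fell, and other hosts of these 2 seeds were not looked for. MIR22HG, the host of miR-22-3p, and MIR34AHG, the host of miR-34a-5p, rose, the second with a call that 6 of 16 alternatives did not make. The seeds of these last 2 microRNAs differ. A host transcript's level is not the level of its microRNA, which was not measured here.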

How the data were processed

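RNA-seq of 6 Ishikawa libraries (3 siNC, 3 siTCF19) was analysed from 1 deposited table, whose columns were matched to samples by name. Per the submitters' processing notes, HISAT2 2.0.5 and featureCounts 1.5.0-p3 were used with hg38. Neither the strand setting nor the treatment of multi-mapping reads is stated there. Per the file headers the authors deposited whole-number read counts and FPKM per library and gene length, and the columns of their own comparison: log2 fold changes, p-values with their adjusted form, and the mean normalized signal of either group. No source used here names the tool behind it, but its log2 fold changes of the 10 genes equal those of DESeq2 here. For well-counted genes, deposited FPKM were checked to be counts over gene length and a size for each library. These sizes were 0.974 to 0.998 of the library's total count in siNC and 1.023 to 1.034 in siTCF19. The start, end and length of all 10 genes equalled those of GENCODE 29.

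Counts were filtered with filterByExpr, scaled by TMM and passed to the quasi-likelihood test of edgeR 4.0.16 in R 4.3.3, with group alone in the model, for 17299 genes. Benjamini-Hochberg adjustment ran over all of them, and a gene was called under 0.05. Every pair of libraries differed by more than counting noise. Standard errors were the log2 fold change divided by the root of the F statistic, and intervals are 95% intervals from them. The intervals are not adjusted over genes. Family shares used deposited FPKM and a two-sided exact permutation test. The limit of 3 counts for a gene at 0 covers counting error only. The members and the gene lists were chosen with earlier results of these data known. Named genes are TCF19, the 10 members, up to 6 called genes of each list by lowest p, and the 3 genes nearest in pattern to the member with the lowest p. Further list members and genes overlapping a member were named after their values were seen. Overlaps with other genes were examined for the 10 members only.

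Alternatives were scaling by RLE, by the upper quartile or by library size alone, a filter of 1 CPM in 3 libraries or none, DESeq2 1.42.0, limma 3.58.1 (voom, and trend on log2(FPKM + 1)), the replicate block, a threshold of 0.01, and leaving out every library in turn. Figures used matplotlib 3.10.9. The count test was first tested on simulated data. Changed genes were drawn at random from all levels and made up a far smaller share than the genes called here. The test recovered 63 of 100 genes changed 1.5-fold and 80 of 100 changed 2-fold, with 7 false calls. These rates do not carry over to the 10 members, for which the 95% intervals give the range. A gene not called may still have changed.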

Additional observations from a re-analysis of the deposited data

How the results depend on the processing

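AGO1, AGO2 and TNRC6B kept direction and call under all 16 alternatives, and TNRC6C kept its call in 8 of 16. Of 160 log2 fold changes of single members, 146 kept direction and side of the threshold. At the threshold of 0.01 the fold changes are those of the main fit, so only the call could differ there. The sign turned, without a call, for AGO3 with no filter (-0.0027), and with single libraries left out, where AGO3 ran from -0.0393 (siNC replicate 3) to 0.0368 and AGO4 from -0.0487 (siTCF19 replicate 1) to 0.120. Scaling by library size alone called 2 members higher (TNRC6B and DICER1), dropped TNRC6C, and called 23 pathway genes higher in place of 14. It shifted the median over all tested genes to 0.06 (log2).

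Samples with the same replicate number did not deviate together (r of -0.02 to 0.02 over genes, the 3 numbers compared), and 2 of 6 libraries correlated best with their own number. With the replicate number as a block, 1 member was called higher and 3 lower, as without it, and 3433 and 3441 of all genes. The block called 2 falls in place of 4 among genes of small RNA turnover and Argonaute regulation, without PNPT1 and TSN. All 7 differences in family share kept their sign on raw counts and with each library left out, where no exact test could pass 0.05. Depth limits TNRC6C most, at 214 to 312 counts per library.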
